A study of Mus musculus with 2 samples.

Results

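The genes of the proteasome were read along the cell cycle in neurospheres, cultures in which neural stem cells and progenitors grow as floating balls. Members were the rows of the expression table whose gene symbol begins with Psma, Psmb, Psmc, Psmd, Psme, Psmf or Psmg followed by a digit. Of 54 such symbols in the annotation, 42 are in the table, among 10666 genes in all. The cells were wild-type C57BL/6 cells from the dorsal telencephalon at embryonic day 14.5, kept in medium with EGF and bFGF at 10 ng/ml each. There were 2 replicate cultures of 1 condition, with 5748 cells in culture 1 and 7057 in culture 2, profiled by droplet single-cell RNA-seq from the 3' end of transcripts. With no second condition and with cells that are not replicates of a culture, no test was run and each value is given for culture 1 and then for culture 2, so that the distance between both values is the only measure of error.

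The proteasome degrades proteins that carry ubiquitin chains. Its core particle is a stack of rings, with outer rings of alpha subunits that form the gate and inner rings of beta subunits that hold the proteolytic sites. The regulatory particle binds ubiquitin chains, removes them, and unfolds the substrate with a ring of ATPases before feeding it into the core. In the cell cycle the proteasome is known for destroying cyclins and securin at the order of ubiquitin ligases.

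By class, the table holds all 7 alpha genes (*Psma1* to *Psma7*) and all 7 constitutive beta genes (*Psmb1* to *Psmb7*), hence 14 core genes. It holds 17 genes of the regulatory particle, which are the 6 ATPases (*Psmc1* to *Psmc6*) and 11 further subunits (*Psmd1*, *Psmd2*, *Psmd3*, *Psmd4*, *Psmd6*, *Psmd7*, *Psmd8*, *Psmd11*, *Psmd12*, *Psmd13* and *Psmd14*). These 31 genes are called subunits hereafter. A further 6 members are assembly factors, where *Psmg1*, *Psmg2* and *Psmg4* help to build the core and *Psmd5*, *Psmd9* and *Psmd10* help to build the ATPase ring. Another 4 are the activator genes *Psme2*, *Psme3* and *Psme4* and *Psmf1*, an inhibitor of the core. The last, *Psmc3ip*, matches the naming rule but encodes a protein of meiotic recombination that was named for an interaction with the ATPase of *Psmc3*, so it is no subunit. The 12 other matching symbols are *Psma8*, *Psmb8*, *Psmb9*, *Psmb10*, *Psmb11*, *Psme1*, *Psme2b*, *Psmg3* and 4 pseudogenes, and they were not analysed here.

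Cell-cycle position is an angle that the authors computed from the expression of cell-cycle genes, where 0.5π marks about the start of S phase. The authors centre S-stage cells at 0.75π. They place the end of G2 at about π and the middle of M phase at about 1.5π. The stretch from 1.75π through 0 to 0.25π holds G1 and resting cells. The angle was made from the same cells, and whether members were among the genes behind it was not tested. An angle rebuilt from 91 S and G2M genes with no member among them had a circular correlation of 0.951 with the deposited one. A G1 window from 1.75π to 0.25π, an S window from 0.5π to π and a G2/M window from π to 1.5π were compared, with 2459, 1701 and 1149 cells in culture 1 and 3991, 1070 and 1399 in culture 2. The S window also holds G2 cells, and its name is short for S and G2. Median depth in the 3 windows was 18308, 21945 and 19552 unique molecular identifiers (UMIs) per cell in culture 1, and 14105, 16334 and 16170 in culture 2, so the S window was the deepest in both. The stretch from 1.25π to 1.75π was thin, with 85 and 64 cells per eighth of the circle in culture 1 and 279 and 189 in culture 2, and it held the shallowest cells, with medians from 11882 to 14812 UMIs. All 48 barcodes that occur in both cultures were kept, and leaving these cells out changed no count of called members. Of 8 markers of radial glia and progenitors, 6 are in the table, led by *Fabp7* with mean values of 91.9 and 90.7, while no marker of microglia or endothelium is listed. The oligodendrocyte lineage gene *Olig2* had 5.71 and 5.57, the neuronal gene *Map2* 1.76 and 1.68, and the astrocyte gene *S100b* 0.30 and 0.148. The other oligodendrocyte lineage markers in the table were low, with *Pdgfra* at 0.104 and 0.0864, *Cspg4* at 0.138 and 0.173 and *Sox10* at 0.0482 and 0.0896. Of 6 neuronal markers 2 are in the table, and the other, *Dcx*, had 0.0918 and 0.0905. *S100b* was the only one of 4 astrocyte markers in the table, and its mean by eighth lay between 0.123 and 0.624 in culture 1 and between 0.0703 and 0.186 in culture 2, highest from 0 to 0.25π in both. The summed progenitor markers lay between 132 and 145 in culture 1 and between 118 and 143 in culture 2. That sum is led by *Fabp7*, and its genes did not move alike. In the S window *Pax6* had log2 ratios of 0.43 and 0.94 and *Vim* -0.02 and -0.61. In the G2/M window *Pax6* had 1.17 and 1.22 and *Vim* 0.001 and -0.61. The 4 oligodendrocyte lineage markers in the table, led by *Olig2*, summed to 6.9 and 6.86 at most and to 4.45 and 4.55 at least, a span of 1.55 and 1.51 times. Their lowest eighth was 0.75π to π in both cultures, next to or within the stretch where the core sums were lowest. These genes did not move alike either. In the S window *Olig2* had log2 ratios of -0.48 and -0.26 and *Sox10* -0.85 and -0.76, while *Pdgfra* had 0.59 and 0.99 and *Cspg4* 0.28 and -0.21. The 2 neuronal markers summed to between 1.24 and 2.23 in culture 1 and to between 1.31 and 2.08 in culture 2, highest from 0 to 0.25π in both. The part of cell type in the values below was not tested.

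Levels come first, as means over cells of the depth-normalized values. Each molecule gives a single 3' tag, so this scale is per molecule and not per base. The core genes had a median of 6.08 in culture 1 and 5.59 in culture 2, and the regulatory particle genes 3.15 and 2.65. Core genes spanned 4.0 to 10.6 in culture 1 and 3.57 to 10.7 in culture 2. Among the alpha genes *Psma7* was the highest at 10.6 and 10.7, and *Psma5* the lowest at 4.0 and 3.57. Among the beta genes, *Psmb6*, which encodes the caspase-like site, had 9.11 and 8.74, *Psmb1* 8.67 and 8.13, *Psmb5*, which encodes the chymotrypsin-like site, 5.99 and 5.43, and *Psmb4*, a structural subunit, 4.67 and 4.58. The order of *Psma7*, *Psmb6* and *Psmb1* at the top was the same in both cultures.

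The ATPases lay within a narrow band, with *Psmc2* lowest at 2.67 and 2.23 and *Psmc3* highest at 3.47 and 3.06. The further regulatory subunits spread more widely. *Psmd7*, a structural partner of the deubiquitinase in the lid, had 4.96 and 4.31, and *Psmd14*, that deubiquitinase itself, had 3.15 and 2.65. *Psmd4*, a ubiquitin receptor, had 3.71 and 3.39. *Psmd13* was the lowest subunit at 0.637 and 0.518, and had a nonzero value in 33.7% and 22.2% of cells, whereas *Psma7* had one in 99.8% and 99.6%. Divided by the exon length in kb, the median was 2.59 and 2.49 for the core and 1.12 and 0.939 for the regulatory particle. Median exon length was 2.335 kb for the core and 2.82 kb for the regulatory particle, so this division favours the core and is no separate check.

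**Figure D1:**
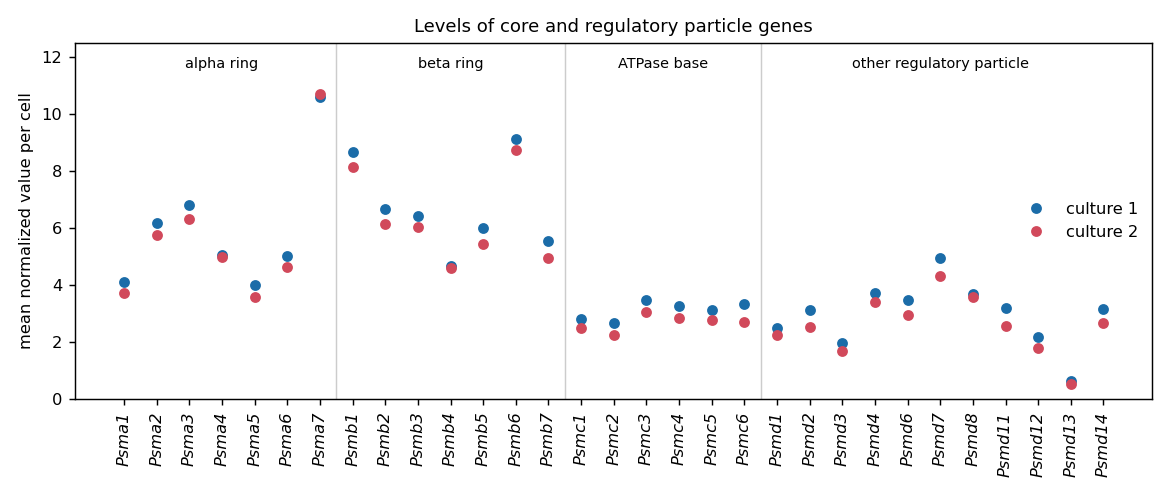
Mean normalized value per cell (y axis, per molecule) of the 31 subunit genes (x axis, by class), with 1 point per culture. Core genes span 4.0 to 10.6 in culture 1, and the ATPases sit in a band from 2.67 to 3.47.

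Levels also differed between the cultures. Of the 31 subunits, 30 were higher in culture 1, and *Psma7* was the exception with a log2 ratio of culture 1 over culture 2 of -0.02. The median log2 ratio was 0.10 for the core and 0.21 for the regulatory particle, where all 17 genes were higher in culture 1, with *Psmc6* at 0.31 and *Psmd8* at 0.04 as the extremes. Most genes of the table went the same way, with 7295 of 10666 higher in culture 1. Over all genes the median was 0.09, and over the 893 genes with a nonzero value in at least 80% of cells it was 0.04. Other complexes differed: of 58 cytosolic ribosomal protein genes 3 were higher in culture 1, with a median of -0.11. Of 65 nuclear genes of oxidative phosphorylation 33 were higher there, with a median of 0.0001. Depth also differed, with medians of 19477 and 14637 UMIs per cell, and culture and library cannot be told apart.

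Along the cycle, the summed values of both particles varied little. The 14 core genes summed to 89.5, 87.8, 87.1, 85.9, 85.9, 97, 95.9 and 92.0 per cell in the 8 successive eighths of the circle in culture 1. In culture 2 the sums were 83.5, 81.1, 80.1, 76.6, 77.2, 86.4, 92.0 and 87.4. Both cultures had their lowest sums on either side of π and their highest in the thin stretch from 1.25π to 1.75π. The highest eighth was 1.13 and 1.2 times the lowest, and without that stretch 1.07 and 1.14 times. The regulatory particle summed to between 50.7 and 57.2 in culture 1 and between 41.4 and 51.1 in culture 2, with both maxima in the thin stretch too. There the highest eighth was 1.13 and 1.23 times the lowest, and 1.02 and 1.09 times without the stretch. For scale, the 58 cytosolic ribosomal protein genes had a highest eighth of 1.08 and 1.07 times the lowest, and the 65 nuclear genes of oxidative phosphorylation 1.27 and 1.15 times.

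The ratio of core to regulatory particle sums stayed between 1.67 and 1.80 in culture 1 and between 1.76 and 1.94 in culture 2. It was highest from 1.75π to 2π in both cultures. It was lowest from π to 1.25π in culture 1 and from 1.25π to 1.5π in culture 2. Culture 2 lay above culture 1 in each of the 8 eighths, as the plot of sums and ratio by position shows.

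**Figure D2:**
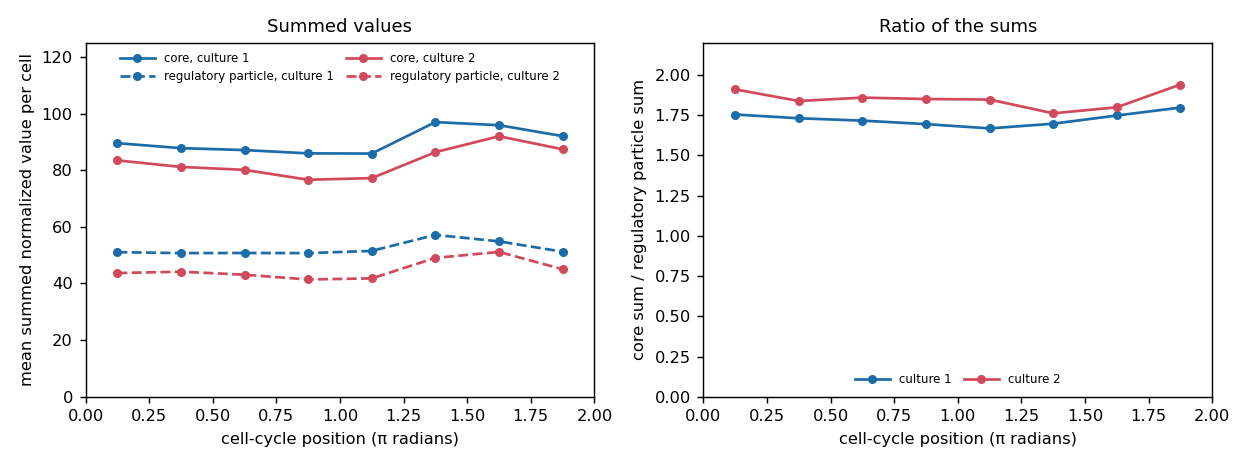
Left, mean per-cell sum of normalized values of the 14 core genes (solid) and 17 regulatory particle genes (dashed) in each eighth of the circle against position in π radians. Right, the ratio of these sums, which stays between 1.67 and 1.94 over both cultures.

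Members were then called in a direction where the ratio of window means to the G1 window was at least 1.2-fold in both cultures. Against the S window, 18% of all genes were called higher and 14.6% lower, and against the G2/M window 15.2% and 19.6%. Of the 42 members, 2 were called higher (*Psmc3ip* and *Psmg2*) and 2 lower (*Psmd10* and *Psme2*) in the S window. In the G2/M window 2 were called higher (*Psmc3ip* and *Psmg2*) and 1 lower (*Psme2*). None of the 31 subunits was called in either window. That set should be read against genes of like abundance, since rarely detected genes have noisier means. Among the 893 genes with a nonzero value in at least 80% of cells, 9.85% were called higher and 5.71% lower in the S window, and 12.1% and 9.85% in the G2/M window, and of the 30 members among them (29 subunits) the count was 0 in each direction.

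A second measure was the R² of a curve with 2 harmonics of the position fitted to log2(value + 1) in each culture, called where it reached 0.02 in both. By it 8.34% of all genes and 20.5% of the well-detected ones were called, and 1 member, *Psmc3ip*. Of the subunits, *Psmc6*, *Psma1* and *Psmb3* reached 0.02 in culture 1 alone and *Psma7* in culture 2 alone. Median R² was 0.00879 and 0.00710 for the core, 0.00286 and 0.00256 for the regulatory particle, and 0.0135 and 0.00988 for all well-detected genes. The particles differ in level, as given above, and these R² values were not matched for abundance.

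**Figure D3:**
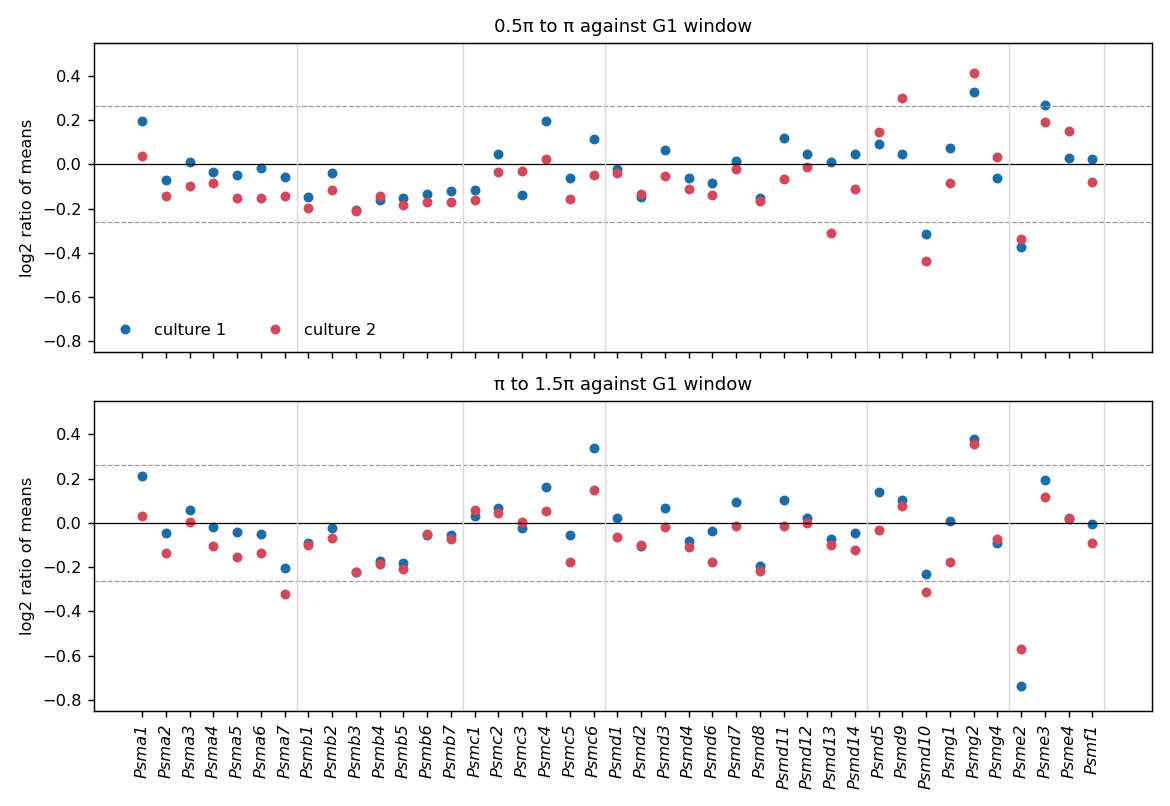
Log2 ratio of mean values in the S window (top) and G2/M window (bottom) over the G1 window for 41 members, with 1 point per culture, vertical lines between classes and dashed lines at 1.2-fold. *Psmc3ip* lies above the axis and is left out. Beta ring genes lie below 0 in both cultures and both windows, and all subunits stay within the dashed lines in at least 1 culture.

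By its median, the core lay slightly below the regulatory particle. The median log2 ratio in the S window was -0.06 and -0.15 for the core and 0.01 and -0.07 for the regulatory particle, so that core minus regulatory particle was -0.07 and -0.08. In the G2/M window the medians were -0.05 and -0.12 for the core and 0.02 and -0.02 for the regulatory particle, a difference of -0.07 and -0.10. The sign of this difference was the same in both cultures and both windows, which share 1 G1 window as denominator. It was not even across classes. In the G2/M window the alpha ring had medians of -0.04 and -0.13 and the 11 further regulatory subunits -0.04 and -0.10. The beta ring had -0.09 and -0.10 there and the ATPases 0.05 and 0.05. In the S window the 11 further regulatory subunits had 0.01 and -0.11. The median of the well-detected genes was -0.06 and -0.06 in the S window and -0.06 and -0.07 in the G2/M window, so the core of culture 1 sat at that level and the core of culture 2 below it. All values on this scale are small beside the 1.2-fold limit, which is 0.26.

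The beta ring was the more uniform of the rings. Its median was -0.15 and -0.17 in the S window and -0.09 and -0.10 in the G2/M window, and all 7 genes were below 0 in both cultures in both windows. Of all 10666 genes, 6069 and 5345 were below 0 in the S window and 6285 and 5900 in the G2/M window. Of the 65 genes of oxidative phosphorylation, 64 and 65 were below 0 in the S window, and of the 58 ribosomal protein genes 52 and 54, so the sign was not particular to the beta ring. *Psmb3*, a structural beta subunit, had means of 6.91, 5.99 and 5.93 in the G1, S and G2/M windows of culture 1 and 6.37, 5.51 and 5.47 in culture 2. Its log2 ratios were -0.21 and -0.21 in the S window and -0.22 and -0.22 in the G2/M window, and its R² was 0.0227 and 0.0173, the highest of the ring by the lower culture. *Psmb5* had 6.37, 5.73 and 5.61 in culture 1 and 5.70, 5.02 and 4.93 in culture 2, again with both later windows below G1. *Psmb2*, which encodes a structural subunit and had the lowest R² of the ring (0.00131 and 0.00593), stayed between 6.49 and 7.10 by eighth in culture 1 and between 5.62 and 6.90 in culture 2. *Psmb1*, *Psmb4*, *Psmb6* and *Psmb7* had log2 ratios in the S window between -0.12 and -0.16 in culture 1 and between -0.14 and -0.20 in culture 2.

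The alpha ring had medians of -0.04 and -0.14 in the S window and -0.04 and -0.13 in the G2/M window, with 5 of 7 genes below 0 in culture 1 and 6 of 7 in culture 2 in the S window. *Psma7* had means of 11, 10.6 and 9.56 in the 3 windows of culture 1 and 11.4, 10.3 and 9.12 in culture 2, and was lowest from π to 1.25π in both. Its log2 ratio in the G2/M window was -0.20 and -0.32, so only culture 2 passed 1.2-fold, and its R² was 0.0148 and 0.0372. *Psma1* went the other way in culture 1, with 3.79, 4.34 and 4.38 and a log2 ratio in the S window of 0.20, while in culture 2 it had 3.66, 3.76 and 3.75 and a ratio of 0.04. *Psma2* had the lowest R² of the ring (0.000305 and 0.00651), with 6.30, 6.01 and 6.10 in culture 1 and 5.95, 5.38 and 5.42 in culture 2. For *Psma3*, *Psma4*, *Psma5* and *Psma6* no log2 ratio in the S window passed 0.16 in size, and no lower R² passed 0.003.

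The ATPases had medians near 0, with -0.01 and -0.04 in the S window and 0.05 and 0.05 in the G2/M window. *Psmc6* stood out, with means of 3.08, 3.34 and 3.90 in culture 1 and 2.62, 2.53 and 2.90 in culture 2. Its log2 ratio in the G2/M window was 0.34 and 0.15, and its highest eighth was 1.25π to 1.5π in both, at 4.78 and 3.86. That eighth was 1.58 and 1.58 times its lowest, but without the thin stretch the same measure was 1.27 and 1.09. *Psmc1* had 2.88, 2.66 and 2.95 in culture 1 and 2.48, 2.22 and 2.58 in culture 2, lowest in the S window of both. *Psmc3* had an R² of 0.00255 and 0.000441, the lowest of the ring. *Psmc4* differed between cultures, with a log2 ratio in the S window of 0.19 in culture 1 and 0.02 in culture 2, and *Psmc2* and *Psmc5* lay between -0.15 and 0.05.

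Of the 11 further regulatory subunits, *Psmd8* had the highest lower R² (0.00690 and 0.00888). Its means were 3.90, 3.51 and 3.41 in culture 1 and 3.75, 3.35 and 3.22 in culture 2, a pattern like that of *Psmb3*, with log2 ratios of -0.15 and -0.16 and then -0.19 and -0.22. *Psmd14* had 3.13, 3.23 and 3.03 in culture 1 and 2.73, 2.53 and 2.51 in culture 2, so the S window was above G1 in the former and below it in the latter. *Psmd11*, a lid subunit, had the lowest lower R² of all subunits (0.00582 and 0.000184), with 3.05, 3.31 and 3.28 against 2.58, 2.46 and 2.56. *Psmd13* showed the widest gap between cultures, at 0.01 and -0.31 in the S window, on the low level given above. The other 7 (*Psmd1*, *Psmd2*, *Psmd3*, *Psmd4*, *Psmd6*, *Psmd7* and *Psmd12*) had log2 ratios in the S window between -0.15 and 0.07.

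Among the assembly factors, *Psmg2* and *Psmd10* moved in opposite directions. *Psmg2*, a partner in the chaperone that starts the alpha ring, had means of 0.829, 1.04 and 1.08 in the G1, S and G2/M windows of culture 1 and 0.752, 1.0 and 0.964 in culture 2. Its log2 ratios were 0.32 and 0.41 in the S window and 0.38 and 0.36 in the G2/M window, and they were 0.33 and 0.43, and 0.37 and 0.34, along the rebuilt angle. Among cells of middle depth, which lie between the lower and upper quartile of total UMIs (13018 and 21147), *Psmg2* had 0.25 and 0.47 in the S window, which is under 1.2-fold in culture 1. *Psmd10*, also known as gankyrin, had 0.705, 0.567 and 0.60 in culture 1 and 0.675, 0.499 and 0.544 in culture 2, with log2 ratios of -0.32 and -0.44 in the S window. In cells of middle depth those were -0.22 and -0.51, so this call too was lost there. In the G2/M window *Psmd10* had -0.23 and -0.31 over all cells but -0.31 and -0.55 in cells of middle depth, where it passed 1.2-fold in both cultures. *Psmd9* had a log2 ratio of 0.05 and 0.30, *Psmd5* 0.09 and 0.14, *Psmg4* -0.06 and 0.03, and *Psmg1*, with the lowest R² of the class, 0.07 and -0.08.

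*Psme2* encodes the beta subunit of the PA28 activator, an interferon-induced cap of the core. Its means were 1.32, 1.02 and 0.790 in culture 1 and 1.51, 1.2 and 1.02 in culture 2, a step down in each window. The log2 ratios were -0.37 and -0.34 in the S window and -0.74 and -0.57 in the G2/M window, and along the rebuilt angle the latter were -0.73 and -0.57. Its R² was 0.0252 and 0.0167. A near-identical copy, *Psme2b*, exists in the annotation, so the value of *Psme2* is uncertain as to which copy the reads came from. *Psme3*, which encodes the nuclear activator PA28 gamma, had 1.17, 1.41 and 1.34 in culture 1 and 1.16, 1.32 and 1.25 in culture 2, with log2 ratios of 0.27 and 0.19 in the S window, where only culture 1 passed 1.2-fold. *Psme4* and *Psmf1* had mean values under 0.45 in both cultures, with log2 ratios in the G2/M window between -0.09 and 0.02.

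*Psmc3ip* (ENSMUSG00000019303, chromosome 11 from 101091823 to 101095436 on the minus strand of GRCm38) had by far the strongest cell-cycle pattern of the members. By eighth its mean was 0.330, 0.713, 1.0, 1.09, 0.886, 0.653, 0.560 and 0.188 in culture 1. In culture 2 it was 0.346, 0.769, 1.22, 1.35, 0.955, 0.669, 0.476 and 0.198. Both cultures were lowest from 1.75π to 2π and highest from 0.75π to π, and the fitted curves peaked at 0.795π and 0.785π. The S window was 4.65 and 5.61 times the G1 window, and the G2/M window 3.83 and 3.92 times. R² was 0.209 and 0.213, and 0.197 and 0.205 after depth was removed, and the next member by the lower culture, *Psmb3*, had 0.0173. It had a nonzero value in 72.1% and 70.7% of cells from 0.75π to π and in 16.3% and 13.4% from 1.75π to 2π, at median depths of 22967 and 17148 against 18437 and 13991 UMIs. Among cells of middle depth, the log2 ratios in the S window were 2.18 and 2.55, beside 2.22 and 2.49 in all cells. Along the authors' Seurat stages, its mean was 0.228, 0.958 and 0.914 in G1, S and G2M cells of culture 1 and 0.227, 1.06 and 0.907 in culture 2.

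**Figure D4:**
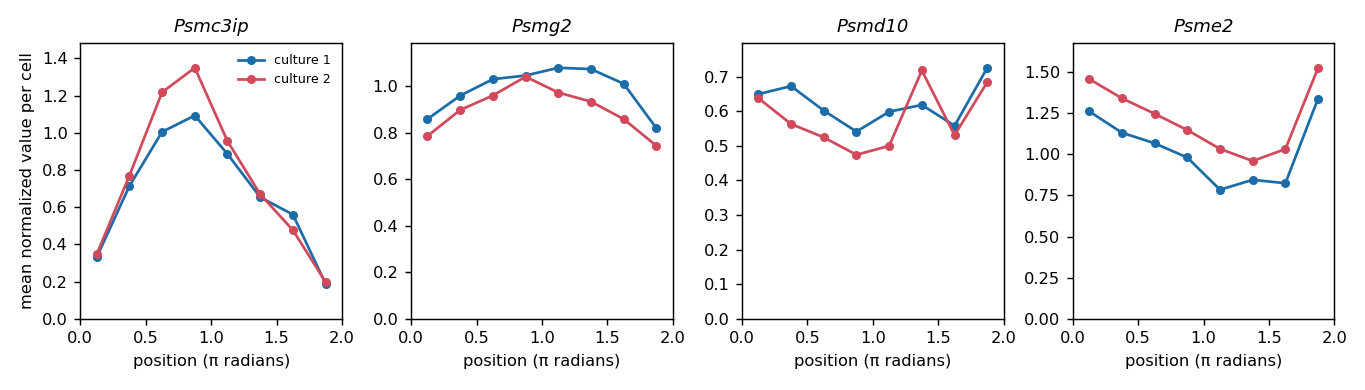
Mean normalized value per cell (y axis, from 0, separate scale per panel) in each eighth of the circle against position in π radians for the 4 called members, with 1 line per culture. *Psmc3ip* peaks from 0.75π to π in both cultures, while *Psme2* is lowest between π and 1.5π.

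Promoters were searched over 250 bases before the RefSeq start of each gene (assembly GRCm38.p6), for which 35 members and 25 subunits have a window. Motifs were counted on both strands, and a match is a description of letters only. The CCAAT box (CCAAT) was found in 40% of the subunits against 33.8% of all windows, the cell-cycle homology element (TTTGAA) in 4% against 16%, and an E2F-type site in 20% against 7.89%. The share of subunits counts 1 window per gene, so that 20% is 5 of 25 genes. The other share counts all 32851 windows, of which a gene may have several. *Psmc3ip* had 0 matches to the E2F-type site and 0 to the cell-cycle homology element. The E2F-type site was read as TTCCCGC or the same word with its middle letters replaced, namely TTGGCGC and likewise the variant TTGCCGC and also the variant TTCGCGC. The core of the antioxidant response element (TGACNNNGC), the kind of site bound by the factors of *Nfe2l1* and *Nfe2l2*, was found in 16% against 10.2%. Given here for comparison are the member with the strongest pattern and the beta gene with the highest lower R², each 5′ to 3′ on the strand of its gene with CCAAT boxes in capitals, *Psmc3ip* from chr11:101095437-101095585 (minus strand) and *Psmb3* from chr11:97703284-97703398 (plus strand).
Psmc3ip: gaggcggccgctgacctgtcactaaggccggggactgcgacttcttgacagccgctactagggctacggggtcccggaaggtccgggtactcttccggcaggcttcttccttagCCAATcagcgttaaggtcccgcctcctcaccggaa
Psmb3: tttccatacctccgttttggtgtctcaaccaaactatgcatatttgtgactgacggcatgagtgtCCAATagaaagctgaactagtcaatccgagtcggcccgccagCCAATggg

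The box of *Psmc3ip* starts 36 bases before the RefSeq start, and those of *Psmb3* at 85 and 43, so these letters are shared by a gene with a strong pattern and one whose R² was near 0.02. Printed stretches end earlier where the gene start in the annotation lies upstream of the RefSeq start. Distances to the last printed letter are therefore shorter. The 4 subunits with an antioxidant response core are shown with that core in capitals, *Psmb5* from chr14:54618023-54618058 (minus strand), *Psmb6* from chr11:70525332-70525356, *Psmc6* from chr14:45329581-45329621 and *Psmd12* from chr11:107479278-107479305 (all plus strand). In *Psmc6* and *Psmd12* the match is on the opposite strand.
Psmb5: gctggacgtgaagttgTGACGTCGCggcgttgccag
Psmb6: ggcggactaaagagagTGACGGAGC
Psmc6: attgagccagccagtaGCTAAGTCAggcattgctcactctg
Psmd12: tctGCTGTGTCAcatttgcccccctcag

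These 4 genes did not share a pattern along the cycle. *Psmb5* and *Psmb6* were below G1 in the S window in both cultures (-0.15 and -0.18, -0.13 and -0.17), *Psmc6* was above it in culture 1 and below it in culture 2 (0.11 and -0.05), and *Psmd12* had 0.05 and -0.01.

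Genes that work with the proteasome but lie outside the naming rule were read from lists of partners. Of 16 partners, 12 are in the table and 2 reached an R² of 0.02 in both cultures. *Uchl5*, a deubiquitinase of the regulatory particle, had an R² of 0.0985 and 0.0674 and had eighth means between 0.644 and 1.46 in culture 1 and between 0.601 and 1.27 in culture 2, highest from π to 1.25π in both. Its log2 ratios were 0.90 and 0.80 in the S window and 1.13 and 1.05 in the G2/M window. *Akirin2*, which brings proteasomes into the nucleus after mitosis, had an R² of 0.0715 and 0.0538, and log2 ratios of -0.21 and -0.13 in the S window but 0.67 and 0.58 in the G2/M window. Its mean peaked from π to 1.25π at 2.82 and 2.63, against 1.73 and 1.63 from 1.75π to 2π. *Sem1*, a small subunit of the lid under another name, had 11.3 and 11.2 with an R² of 0.00351 and 0.00172, as flat as the named subunits. In the fold call 1 partner was higher in the S window and 2 in the G2/M window, and 0 were lower.

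Among 9 of 10 listed genes for ubiquitin supply and the p97 unfoldase, 0 were called by either measure. *Ubb*, a polyubiquitin gene, came closest in R² (0.0689 in culture 1 and just under 0.02 in culture 2), with a maximum from π to 1.25π of 39.4 and 35.5. *Vcp*, which encodes p97, had log2 ratios of -0.26 and -0.26 in the S window. Of 7 regulators of proteasome genes, 4 are in the table. *Nfe2l1*, which encodes the factor that raises proteasome genes when the proteasome is inhibited, had log2 ratios of -0.60 and -0.27 in the S window, and *Ngly1*, whose enzyme activates that factor, -0.34 and -0.58, the 2 called lower. *Ddi2*, its protease, was called higher at 0.27 and 0.36, on mean values of 0.237 and 0.238. In the G2/M window only *Ngly1* was called among the 4, at -0.53 and -0.67. Of 9 genes of interferon response and antigen presentation, 6 are in the table. In the S window 1 was called higher (*Irf1*) and 2 lower (*Tap2* and *Tapbp*), and in the G2/M window 1 lower. Those 3 genes had a nonzero value in 2.67%, 4.61% and 11.5% of cells. Over all genes, 18% were called higher and 14.6% lower in the S window, and 19.6% lower in the G2/M window. *B2m* was at 1.81 and 1.82 and the other 5 had means under 0.15, and *B2m*, which encodes the light chain of class I molecules, was the gene called in the G2/M window, with log2 ratios of -0.41 and -0.28.

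Across cells, correlations between pairs of genes of one particle were low. Pairs of other genes of like abundance were not measured for comparison, and the part of measurement noise in these values was not tested. The correlation of log2(value + 1) between pairs of core genes had a median of 0.068 in culture 1 and 0.108 in culture 2 (91 pairs). Between pairs of regulatory particle genes it was 0.046 and 0.065 (136 pairs), and between core and regulatory genes 0.050 and 0.082 (238 pairs). Pairs within a particle were thus not always above pairs across the particles. The mean of the core genes against that of the regulatory particle genes had a correlation of 0.42 over 5748 cells and 0.56 over 7057 cells. With position and depth removed it was 0.36 and 0.50. These are descriptions, since the cells of a culture share its library and each cell's values share 1 depth normalization.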

How the data were processed

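Expression values and a per-cell table of 2 cultures were used as deposited. According to the methods and labels, the authors estimated spliced counts with alevin (Salmon 1.3.0) against GRCm38, removed outlying cells by genes, UMIs, mitochondrial share and doublet score, removed mitochondrial and rare genes, and normalized each cell by library size. The deposited expression values are therefore a signal on a linear scale, from which whole reads could not be recovered, so no count model and no thinning of cells was used. Total UMIs per cell are deposited sums of estimated counts, and position and stages are other deposited values. Labels and methods differ on the kit version. Median depth was 19477 and 14637 UMIs per cell in cultures 1 and 2. Nothing in the labels says whether the cultures came from separate embryos.

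Symbols were found for 10662 of 10666 genes in release vM21 of GENCODE, which is older than the authors' release. Python 3.11.15 with numpy 2.4.6 was used, and the steps were tested on simulated data. R² was fitted on log2(value + 1), and folds are ratios of mean linear values without a filter, pseudocount or doublet caller. Members are named by class, with full values for those called and, in each class, the 2 with the highest and the 1 with the lowest R² in the lower culture. Members, lists and rules were chosen with earlier results of these data known. Alternatives were each culture alone, a rebuilt angle, middle depth (13018 to 21147 UMIs), other scales, windows, thresholds and members.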

Additional observations from a re-analysis of the deposited data

How the results depend on the processing

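The core and regulatory particle medians in the S window and core minus regulatory particle in the G2/M window moved by less than the SD between the cultures under each of 10 alternatives. With either culture alone this outcome is fixed, since the shift is then smaller than that SD by construction. A filter on genes detected in at least 5% of cells changed no value, and no further core gene was in the table to add. The regulatory particle median, -0.0297 over both cultures, was 0.0114 as a difference of mean log2(value + 1). Its sign thus changed, within an SD of 0.0539. Core minus regulatory particle in the S window, -0.0766 over both cultures, kept its sign throughout: it was -0.0839 with the rebuilt angle, -0.0823 with the base chaperones included, -0.0675 in cells of middle depth, -0.0539 with Seurat stages as windows and -0.0642 for summed values, and from -0.0803 to -0.0730 with either culture alone. Members past the fold, 4 in the S window, numbered 2 in cells of middle depth, 1 as a difference of mean log2(value + 1), 10 at 1.1-fold and 1 at 1.5-fold, and from 5 to 6 with either culture alone. In the G2/M window they numbered 3, and 1, 10 and 1 under those last 3 settings, and from 4 to 5 with either culture alone (5 without culture 1). Members varying with the position, 1 in all, numbered 3 in cells of middle depth and 8 at an R² of 0.01, and from 2 (without culture 1) to 5 (without culture 2). Fewer cultures must pass in the settings with 1 culture, which by construction raises these counts. The cause of the other changes was not tested. The omission of shared barcodes was chosen after seeing the data. No paired analysis was possible because there is 1 condition, so no groups share replicate numbers. No counting interval can be given for normalized values, so what depth limits was not quantified.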
